A study of Mus musculus with 8 samples.

Results

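Carbonic anhydrases are the enzymes that convert carbon dioxide and water to bicarbonate and a proton. The 10 family members Car7, Car2, Car3, Car4, Car8, Car10, Car11, Car12, Car13 and Car14 were described here in the utricles of mouse embryos, out of 48823 gene identifiers in the count files. They were matched by symbol in the authors' normalized table. The family was chosen with the genotype difference of Car7 in view, so that difference is given below as a description and supports nothing, and the other members were taken as its paralogs. The mouse family has 6 further genes, Car1, Car5a, Car5b, Car6, Car9 and Car15, which were not members and are given only where they bear on one.

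The utricle is a gravity-sensing organ of the inner ear. The 4 mutant libraries came from C57BL/6 embryos of age E15.5 that carried the Rest(+/deltaExon4) genotype, in which 1 allele of Rest lacks exon 4, although their titles call them KO. The 4 wild-type libraries came from the same strain and age, except that the labels of wild-type replicate 4 read C57BL/7 and E15.6. Each library pooled RNA from 7 to 9 mice, which averages over animals, and the labels do not say whether pools shared litters, so p-values measure the spread between these libraries.

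Rest encodes a repressor that silences neuronal genes outside neurons, and its exon 4 is an alternative exon. In the family, Car7, Car2, Car3 and Car13 are cytosolic enzymes. Car4, Car12 and Car14 sit on the cell surface with the active site outside. Car8, Car10 and Car11 are related proteins that lack the enzyme activity. In the inner ear carbonic anhydrases are known for handling bicarbonate and protons in the fluids around the hair cells and otoconia, and Car7 is known from neurons, where it supplies bicarbonate that passes through GABA-A receptor channels.

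The active site holds its zinc with 3 histidines, and the coding sequence at these places separates the enzymes from the inactive members. The stretches below are from GENCODE M21 transcripts, on the coding strand, and show the codons aligned with the first and second of these histidines in capitals.
Car7: aagcagctcCACttcCACtggggcaag
Car2: atccagtttCACtttCACtggggctca
Car3: cgccaattcCATcttCACtggggctcc
Car13: cggcagttcCATttgCACtgggggtca
Car4: gtacagttgCACctgCACtggtcaaat
Car12: gagcagctgCACttgCACtgggggaac
Car14: gcccagctcCACctgCACtggggtcag
Car8: tatgaagttAGAtttCACtggggaaga
Car10: gaagaaatcCGGctaCACtttgggagt
Car11: agtgaactgCGCctgCTAtttggagct
In Car7 and the other 6 enzymes, both capital codons, CAC or CAT, encode histidine. Car8 and Car10 lack the first histidine codon and Car11 lacks both. The codon aligned with the third histidine follows for Car7, which has it, and for the 3 inactive members.
Car7: agcgagctaCATctggttcac
Car8: atggagctcCACctgatccac
Car10: ggggaggtaCAActcatccac
Car11: gctgaggtgCAGctaatccac
Counted over the 3 places, Car7 and the other 6 enzymes had 3 histidine codons each, Car8 had 2, Car10 had 1 and Car11 had 0. Car7 was read from a protein of 264 residues. By alignment of the translated sequences, its identity was highest with Car2 at 55.0% of aligned residues, then Car13 at 52.7% and Car3 at 51.5%. It was 44.9% with Car8, 41.7% with Car12, 40.2% with Car14, 35.7% with Car4, 32.8% with Car10 and 31.7% with Car11. The level per length in wild type followed this order only in part. The closest members Car2, Car13 and Car3 took places 2, 4 and 1 of 10, while Car8, next in identity, took place 8. Car7 itself took place 6.

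Depth was similar across libraries, at 20.4 to 24.6 M read pairs counted on genes. The share of read pairs that named no gene was 25.2% to 29.97% in heterozygotes and 30.08% to 33.9% in wild type, without overlap, and its part in the differences below was not tested. The gene counts of Rest were 124.6 to 131.7 CPM (counts per M read pairs of TMM-scaled library size) in heterozygotes and 106.2 to 122.0 CPM in wild type. They cover the whole gene, so they do not check the deletion of 1 exon on 1 allele. The hair cell factor gene Pou4f3 was at 98.8 to 120.9 CPM in heterozygotes and 99.4 to 125.6 CPM in wild type. The otoconial gene Oc90 was at 1346 to 2478 CPM over all libraries. A hair cell gene and an otoconial gene were thus present in each library, which does not check which organ of the inner ear was taken. Genotypes were compared with edgeR's quasi-likelihood test over 16990 genes, with Benjamini-Hochberg adjustment and a threshold of 0.05. All 10 members passed the filter on low counts.

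Car7 (chromosome 8, 104534689 to 104550343, plus strand, GRCm38) was at 1.54, 1.91, 1.38 and 2.33 CPM in heterozygote replicates 1 to 4. In wild-type replicates 1 to 4 it was at 10.8, 14.2, 10.9 and 16.1 CPM. These values rest on 33 to 57 read pairs per heterozygote library and 254 to 333 per wild-type library. Every heterozygote library was below every wild-type library. The means were 1.79 ± 0.424 and 13.0 ± 2.61 CPM (SD, n = 4 each), a 7.26-fold difference, and the fitted log2 change, heterozygote minus wild type, was -2.86 ± 0.22 (SE). Of the 16990 genes tested, 32 had a lower log2 change than Car7, 20 of them among those called lower.

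**Figure D1:**
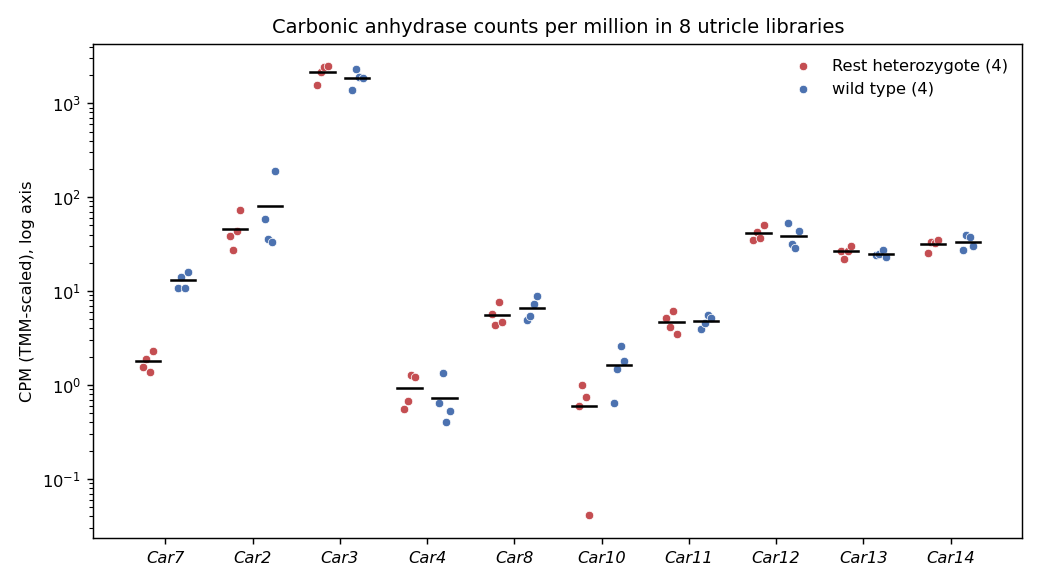
CPM of the 10 members on a log axis, with 1 point per library, red for the 4 Rest heterozygotes and blue for the 4 wild-type libraries, and a black line at the arithmetic mean of each group. Car7 is the member whose groups do not overlap, with red points from 1.38 to 2.33 CPM and blue points from 10.8 to 16.1 CPM; Car2 has 1 blue point at 191.8 CPM, and the lowest red point of Car10 is a library with 1 read pair.

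Over the family, 1 of 10 members was called lower and 0 were called higher, against 1.02% of all genes tested called lower and 0.147% called higher. Nothing is read from the count of lower calls, because Car7 was chosen on this contrast. Besides Car7, no member had groups that did not overlap, while 7.88% of all genes tested had such groups. Of the 9 other members, 1 (Car10) had an unadjusted edgeR p under 0.05, against 13.4% of all genes, and 0 were called by DESeq2, against 2.73% of the genes to which it gave an adjusted p. Their log2 changes ran from -1.45 to 0.37, with 5 below and 4 above 0 and a median of -0.02, beside a median of -0.0027 over all genes tested.

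Among the cytosolic enzymes, Car3 is known from muscle and fat and has low enzyme activity. It was at 1552, 2155, 2416 and 2465 CPM in heterozygotes and 1385, 2327, 1882 and 1859 CPM in wild type. The groups overlapped, and replicate 1 was the lowest in both. The log2 change was 0.20 ± 0.17 (SE), with a 95% interval from -0.18 to 0.58 (edgeR's quasi-likelihood fit, adjusted p = 0.636). Markers of skeletal muscle summed to 103.5 to 116 CPM in heterozygotes and 73.5 to 123.3 CPM in wild type over 9 genes. Of the 9, edgeR called 1, Myog, higher and 0 lower, beside 0.147% and 1.02% of all genes. DESeq2 called 2 of them higher, Myog and Myh3, and 0 lower, beside 2.73% of genes called in either direction. The highest of these markers, the actin genes Acta1 and Actc1, were at 20.5 to 47.4 CPM and 15.2 to 21.8 CPM over the 8 libraries, and the muscle creatine kinase gene Ckm was at 2.80 to 7.20 CPM. The part of muscle in the level of Car3 was not tested.

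Car13, a cytosolic enzyme found in many tissues, varied least among the members. It was at 26.5, 22.1, 26.6 and 30.5 CPM in heterozygotes and 24.2, 24.6, 27.7 and 23.0 CPM in wild type, with overlapping groups. Its coefficient of variation was 13.1% in heterozygotes and 7.94% in wild type. The log2 change was 0.09 ± 0.11 (SE), with a 95% interval from -0.16 to 0.34.

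Car2, the high-activity cytosolic enzyme of red cells and many epithelia, was at 38.3, 27.5, 43.6 and 73.6 CPM in heterozygotes. In wild type it was at 58.2, 35.8, 33.3 and 191.8 CPM. Wild-type replicate 4 stood far above the other 3 libraries of its group, whose values lay inside the heterozygote range. With all libraries the log2 change was -0.80 ± 0.52 (SE) (edgeR, adjusted p = 0.537). Without wild-type replicate 4 it was 0.11 ± 0.30 (adjusted p = 0.921), and the wild-type mean went from 79.8 ± 75.5 CPM (SD, n = 4) to 42.4 ± 13.7 CPM (SD, n = 3).

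Markers of red cells were highest in the same library. Its 9 matched erythroid markers summed to 6581 CPM, against 506.7 to 802.4 CPM in the other 7 libraries. The haemoglobin gene Hbb-bs was at 2142 CPM there and at 152.9 to 248.7 CPM elsewhere, and Slc4a1, the anion exchanger of red cells, was at 128.4 CPM against 3.73 to 8.83 CPM. The liver genes Afp and Alb, named here after their values were seen, were at 1157 and 457.1 CPM in it and at most 0.429 CPM elsewhere. Car1, the other red cell carbonic anhydrase, was at 5.63 CPM there and 0.0956 to 1.13 CPM elsewhere. In heterozygote replicate 4 the Car2 level, 73.6 CPM, was the second highest, while its Hbb-bs level, 194.7 CPM, lay within the range of the libraries other than wild-type replicate 4. The 6 markers of macrophages and osteoclasts, none called by edgeR, summed to 103.6 CPM in wild-type replicate 4 and 56.6 to 92.4 CPM elsewhere. Among them Acp5, named after its values were seen, was at 14.5 CPM in wild-type replicate 4. It was at 8.71 CPM in heterozygote replicate 4, 3.23 CPM in wild-type replicate 1 and 0.334 to 1.34 CPM elsewhere. Heterozygote replicate 4 and wild-type replicate 1, the next highest in Car2 after wild-type replicate 4, were also the highest in Car12. It was at 50.3 and 52.5 CPM in them and 28.5 to 43.5 CPM elsewhere. The proton pump subunit gene Atp6v0d2, named after its values were seen, was at 5.60 and 3.36 CPM in them and at most 0.0857 CPM elsewhere. The part of red cells, of these other cells or of cells with pump subunits in the level of Car2 was not tested.

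**Figure D2:**
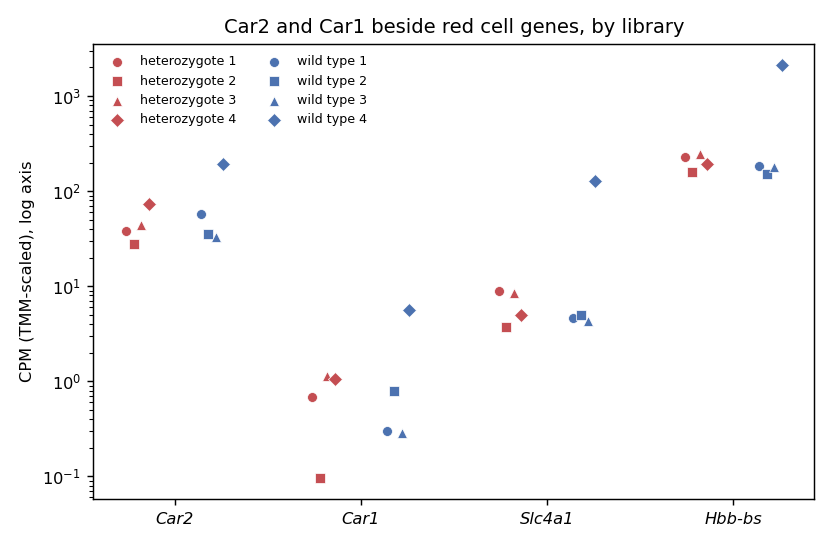
CPM of Car2, Car1, Slc4a1 and Hbb-bs in each library on a log axis, with red symbols for heterozygotes and blue for wild type. Each replicate number has a symbol shape, and the numbers were not taken as pairs. Wild-type replicate 4, the blue diamond, is the highest point of all 4 genes, with Car2 at 191.8 CPM and Hbb-bs at 2142 CPM.

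Among the enzymes of the cell surface, Car12 was at 35.1, 42.9, 36.7 and 50.3 CPM in heterozygotes and 52.5, 31.5, 28.5 and 43.5 CPM in wild type. Every heterozygote library lay within the wild-type range, and the log2 change was 0.08 ± 0.19 (SE), with a 95% interval from -0.33 to 0.50. Car14 was at 25.4, 33.6, 32.3 and 34.8 CPM in heterozygotes and 27.4, 39.3, 37.4 and 30.4 CPM in wild type. These groups overlapped too, with a log2 change of -0.09 ± 0.14 (SE) and a 95% interval from -0.40 to 0.21. Car14 shares 521 bases with Aph1a on the opposite strand, at 16.2 to 21.8 CPM over the libraries. Without strand in the counting, read pairs there cannot be told apart and fall among the ambiguous pairs that named no gene. The counts of Car14 leave them out. Car4, held to the membrane by a lipid anchor, was near the limit of these libraries with 10 to 31 read pairs in each, at 0.557 to 1.29 CPM in heterozygotes and 0.404 to 1.34 CPM in wild type. Its interval, -0.62 to 1.36 on the log2 scale, was correspondingly wide.

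Car8, an inactive member that binds the IP3 receptor Itpr1, was at 5.66, 4.397, 7.68 and 4.66 CPM in heterozygotes and 4.93, 5.45, 7.24 and 8.92 CPM in wild type. The groups overlapped, and the log2 change was -0.24 ± 0.24 (SE), with a 95% interval from -0.77 to 0.29. Car11 was at 5.23, 4.16, 6.10 and 3.48 CPM in heterozygotes and 3.91, 4.62, 5.58 and 5.14 CPM in wild type, also overlapping. Its log2 change was -0.02 ± 0.21 (SE), with a 95% interval from -0.49 to 0.45.

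Car10, an inactive member that binds neurexins at synapses, was the paralog with the most negative change. It was at 0.600, 1.004, 0.751 and 0.0409 CPM in heterozygotes, from 14, 21, 18 and 1 read pairs. In wild type it was at 0.638, 1.48, 2.63 and 1.79 CPM, from 15, 32, 65 and 37 read pairs. The groups overlapped through wild-type replicate 1, which lay below heterozygote replicates 2 and 3. The log2 change was -1.45 ± 0.63 (SE), with a 95% interval from -2.84 to -0.07 and an unadjusted p of 0.041 from edgeR's fit, which did not pass adjustment over all genes (adjusted p = 0.355, and 0.265 by DESeq2).

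**Figure D3:**
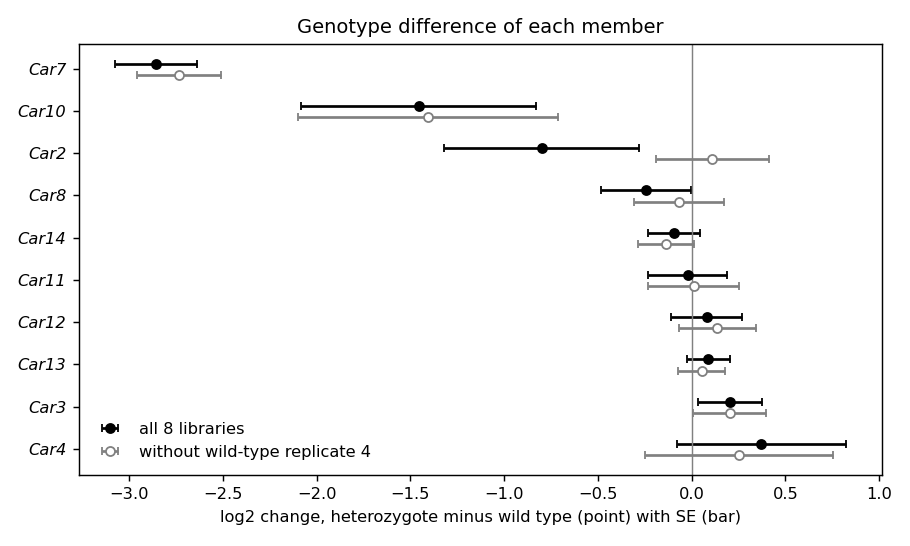
Fitted log2 change of each member, heterozygote minus wild type, with bars of 1 SE; filled points use all 8 libraries and open points leave out wild-type replicate 4. Car7 lies at -2.86 with all libraries and -2.73 without that one, Car2 moves from -0.80 to 0.11, and Car10 lies at -1.45 and -1.41 with wide bars.

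Levels of different genes were compared per length, as CPM per kb of exon. In wild type Car3 stood first, at 483.3 to 812 CPM per kb, and ranked 25 among 21695 protein-coding genes by its wild-type mean. Car2 followed at 13.8 to 79.2, then Car14 at 10.8 to 15.4 and Car13 at 10.02 to 12.0. Below them came Car12 at 3.75 to 6.91, Car7 at 2.97 to 4.44, Car11 at 2.03 to 2.90 and Car8 at 1.28 to 2.32. Car4 at 0.206 to 0.681 and Car10 at 0.100 to 0.413 CPM per kb closed the order. Neighbours in this order whose wild-type libraries overlapped were Car2 with Car14, Car14 with Car13, Car12 with Car7, Car11 with Car8, and Car4 with Car10. The libraries of Car3 and Car2, of Car13 and Car12, of Car7 and Car11, and of Car8 and Car4 did not overlap.

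In heterozygotes Car7 was at 0.379 to 0.641 CPM per kb and took place 8, below Car11 and Car8, which it had exceeded in wild type. Those 2 genes moved up by 1 place each, and the other 7 members kept their places. The summed level per length of the 10 members was mostly Car3, which made up 84.7% to 94.5% of it over the 8 libraries. Car7 made up 0.0422% to 0.580% of it.

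**Figure D4:**
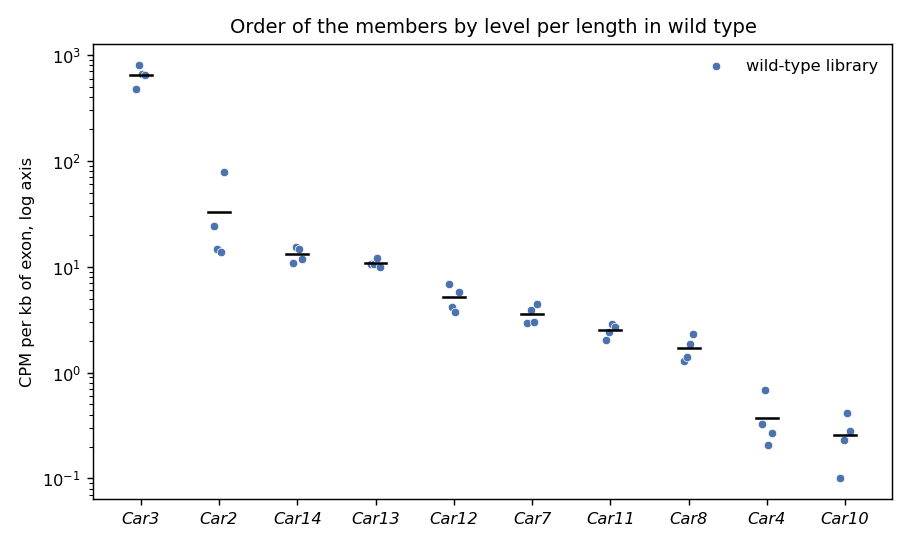
CPM per kb of exon of the 10 members in the 4 wild-type libraries, on a log axis, 1 blue point per library with a black line at the arithmetic mean, ordered by that mean. Car3 lies at 483.3 to 812 and Car10 at 0.100 to 0.413, with Car7 in place 6.

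Markers of hair cells and neurons were set beside Car7, since it is known from neurons and the cells that hold its RNA in this organ cannot be told from bulk libraries. In such libraries, fewer cells of a type and less RNA per cell cannot be told apart. The 12 hair cell markers summed to 695.0 to 848 CPM in heterozygotes and 809.2 to 923.0 CPM in wild type, and edgeR called 2 of them lower, Otof and Lhfpl5, and 0 higher, beside 1.02% and 0.147% of all genes. At an unadjusted p under 0.05, 5 were lower and 3 higher (Atoh1, Calb2 and Pvalb), and DESeq2 called 3 lower and 1, Pvalb, higher. The 10 ganglion neuron markers summed to 505.9 to 568.8 CPM and 652.9 to 875.0 CPM, with 2, Nefl and Nefm, called lower by edgeR and 0 higher. At an unadjusted p under 0.05, 3 were lower and 1 higher, and DESeq2 called 2 lower and 1, Gata3, higher. Nefl and Nefm had means of 72.4 and 100.4 CPM in heterozygotes and 134 and 254 CPM in wild type. Isl1 and Gata3 had means of 147.2 and 147.9 CPM in heterozygotes and 146.4 and 103.1 CPM in wild type. The median log2 change of the 10 neuron markers was -0.07. Their highest sum was in wild-type replicate 3, which also had the highest Tubb3 and Prph, at 62.0 and 48.7 CPM. Per 100 CPM of Pou4f3, Car7 was at 1.28 to 2.36 in heterozygotes and 8.60 to 14.3 in wild type. Per 100 CPM of Otof, the synaptic gene that fell itself, it was at 1.69 to 2.60 and 6.16 to 9.51. The groups did not overlap in either ratio. Both ratios hold the genotype difference that Car7 was chosen for, so they are a description and support nothing. The part of these cell types in the level of Car7 was not tested.

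Genes that handle the same ions were read from 7 lists. None of the 79 genes tested in them was called in either direction by edgeR, while 12 (15.2%) had an unadjusted p under 0.05, beside 13.4% of all genes. DESeq2 called 3 of the 83 to which it gave an adjusted p (3.61%, beside 2.73% of all genes), of which Slc9a8 and Bsg are described here. These shares were near the background. Of the 18 bicarbonate and anion exchangers tested, 2 had an unadjusted p under 0.05, both lower, and the median log2 change was -0.14. They were the red cell exchanger Slc4a1, highest in wild-type replicate 4, and Slc26a4, pendrin, which exchanges chloride for bicarbonate in the inner ear, at 19.3 ± 2.14 CPM in heterozygotes and 25.6 ± 3.31 CPM in wild type (SD, n = 4 each). Of the 11 sodium proton exchangers and their regulators tested, 2 were lower and 1 higher at that p, with a median of 0.12. Slc9a8, a Golgi exchanger, was called by DESeq2 alone, at 23.5 ± 1.87 CPM against 30.4 ± 0.804 CPM (SD, n = 4 each).

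Of the 22 vacuolar proton pump subunits tested, 2 were lower at an unadjusted p under 0.05, with a median of 0.03. The summed level was 1979 to 2191 CPM in heterozygotes and 2027 to 2110 CPM in wild type. This sum hides subunits of low level that were highest in heterozygote replicate 4 and wild-type replicate 1. There Atp6v1b1 was at 8.18 and 4.63 CPM, against 1.03 to 3.59 CPM elsewhere, and Atp6v0a4 at 6.63 and 2.59 CPM, against 0.242 to 0.849 CPM. Atp6v1g3 was at 8.84 and 3.91 CPM and Atp6v0d2 at 5.60 and 3.36 CPM, both at most 0.0857 CPM elsewhere. Of 11 chloride cotransporters and GABA-A receptor subunits, 2 were lower and 1 higher, with a median of 0.12. Of 8 genes of monocarboxylate, water and ammonia transport, 1, Bsg, was higher at the unadjusted p and called by DESeq2, with a list median of 0.19. Of 6 partners of the inactive members, 1, Nrxn3, was lower at the unadjusted p, with a median of -0.10. It encodes a neurexin and was at 42.6 ± 8.49 CPM in heterozygotes and 61.3 ± 11.4 CPM in wild type (SD, n = 4 each; edgeR's adjusted p = 0.187).

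Of the 6 carbonic anhydrases outside the set, 3 passed the filter and none was called by edgeR or DESeq2, which gave Car1 no adjusted p, or had an unadjusted p under 0.05. Car9, the surface enzyme induced by low oxygen, was at 1.10 to 2.70 CPM in heterozygotes and 1.89 to 2.59 CPM in wild type. The mitochondrial Car5b had 3 to 26 read pairs per library, while Car5a and Car15 had at most 6.

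Car7 lies 51 bases from Nae1, which is read from the opposite strand. Nae1 was at 138.6 to 155.1 CPM in heterozygotes and 136.4 to 143.1 CPM in wild type, with overlapping groups and a log2 change of 0.05 ± 0.06 (SE). Of the 12 genes tested within 300 kb of Car7, none was called, with log2 changes from -1.09 to 0.28. Over all genes tested, 1.02% were called lower and 0.147% higher, so nothing is read from that count. Car13, Car1, Car3 and Car2 lie together in 259 kb of chromosome 3 (14641727 to 14900770), and their log2 changes were 0.09, -1.20, 0.20 and -0.80, none of them called.

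REST binds an element that includes the letters AGCACC and, downstream, the letters GGACAG. Both were searched on either strand of windows from 250 bases before to 50 after RefSeq start sites (GRCm38.p6), which were found for 6 of the 10 members, in 10 windows. AGCACC occurred in both windows of Car10 and in 16.2% of the 32851 windows of all genes. GGACAG occurred in 1 of 3 windows of Car7, in 1 of the windows of Car11 and in 22.2% of all windows. The longer form TCAGCACC, which contains AGCACC, occurred in no member window and in 1.65% of all. The matches are shown with 12 bases on either side, from the gene's strand, with the searched letters or their reverse complement GGTGCT in capitals.
Car7, chr8:104540827-104540856, + strand: gacagagcgagcGGACAGaacggagccggc
Car11, chr7:45699901-45699930, + strand: ggaggaggaagaGGACAGagggaagaagag
Car10, chr11:93098319-93098348, + strand: tgggtggtgggtGGTGCTctcgccgccccc
Car10, chr11:93099307-93099336, + strand: aatctcggcggcGGTGCTagttgcgggcga
Car7, the member with the lowest heterozygote share of its wild-type level, and Car11, whose means were 4.74 and 4.81 CPM, thus held the same short letters, at shares found in many promoters. A match is a description of the letters and not a site.

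By profile over the 8 libraries, the genes nearest to Car7 were taken as those with the smallest Euclidean distance of log2(CPM + 0.5), centred on each gene's mean, among 13500 protein-coding genes with a mean of at least 1 CPM. They were Scn3b, a sodium channel subunit gene, at 0.80, Kcna10, a potassium channel gene, at 0.82, Gm1113 at 0.97, Gdap1l1 at 1.05 and Gdap1 at 1.18, against a median distance of 3.73. All 5 had heterozygote libraries below every wild-type library, at 3.30 to 3.82 against 18.1 to 21.9 CPM for Scn3b and 1.24 to 2.17 against 8.13 to 15.9 CPM for Kcna10. The other members lay at 2.89 (Car10) to 4.10 (Car4) from Car7, with a median of 3.74. The distances hold the genotype difference that Car7 was chosen for, so they are a description.

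**Figure D5:**
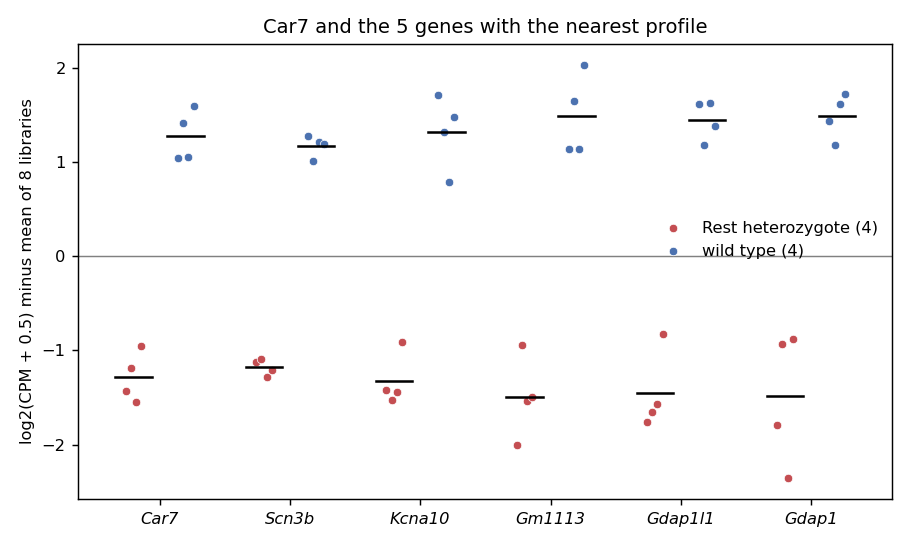
Centred log2(CPM + 0.5) of Car7 and its 5 nearest genes in each library, red for the 4 heterozygotes and blue for the 4 wild-type libraries, with a black line at each group's mean. In all 6 genes the blue points lie above 0 and the red points below it; the genes were picked for this likeness.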

How the data were processed

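RNA-seq libraries of 8 utricle pools were used. STAR 2.5.2a and the build GRCm38.p4 are named in the submitters' processing notes. The authors deposited counts of read pairs per gene, whole numbers and not normalized; the unstranded column was used. Lines naming no gene (25.2% to 33.9% of read pairs) were left out. The authors also deposited a signal table, made by dividing counts by a size factor per library, as its values show. It holds 7 libraries and 21369 genes without wild-type replicate 4; 100% of its values became whole reads (tolerance 0.001) equal to the deposited counts, and the count test on it called 127 genes.

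Genes passed edgeR's filterByExpr (minimum count 10, total 15) and were TMM-scaled and tested by quasi-likelihood (edgeR 4.0.16, R 4.3.3). SE is the log2 change over the square root of F, and 95% intervals use the fit's degrees of freedom. DESeq2 1.42.0 and the other alternatives are in the closing section. The test was checked on simulated data. Symbols, lengths and coding sequences came from GENCODE M21, aligned with Biopython 1.88. Members and lists were chosen with earlier results of these data known. Genes named were all family members, Rest, the 5 profiles nearest Car7, and markers beside a member. Of each list, up to 4 called and the 2 highest were named. Slc4a1, Afp, Alb, Acp5, Tubb3, Prph, Atp6v1b1, Atp6v0a4, Atp6v1g3 and Atp6v0d2 were named after their values were seen. Aph1a and Nae1 were named for their position. The result of 1 listed gene is not reported here. Sequencing depth limits Car4 and Car10 most.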

Additional observations from a re-analysis of the deposited data

Results flagged for a closer look

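One value stood far from the others of its group. Car2 in wild-type replicate 4 was at 191.8 CPM, and its gap to the next wild-type library took 0.843 of the group's whole range, above Dixon's critical value at the 95% level for 4 libraries. There were 20 such groups checked, 10 members in 2 genotypes, and chance alone marks about 1 in 20. The erythroid markers, Slc4a1 and Car1 were highest in the same library, as given with the levels of Car2, and their part in the value was not tested.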

How the results depend on the processing

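Car7 was called lower and no other member was called in any of the 16 alternatives to the fit, with log2 changes of Car7 from -3.01 to -2.72. Leaving out each library in turn gave Car7 -3.01 to -2.73, genes called lower 105 to 140 and genes called higher 12 to 28, beside 173 and 25 with all libraries; the lower count moved by over 1.5 times without heterozygote replicates 3 or 4 or any wild-type library, and the higher count without heterozygote replicate 1 or wild-type replicates 1 or 3. DESeq2 called 390 lower and 155 higher. With the replicate block 80 were lower and 16 higher, and Car7 was at -2.86 (edgeR, adjusted p = 5.8e-04). Same-numbered libraries did not deviate together (r from -0.14 to 0.07), so the numbers were not taken as pairs. These correlations cannot show whether pools shared litters or a batch. The 7 libraries and genes of the authors' table, chosen after seeing the data, gave 107 lower and 20 higher. Members past no threshold changed sign in places, Car2 to 0.13, and Car11 to 0.026, in the authors' 7 libraries. With each library left out in turn, Car2 ran from -1.12 to 0.11 (positive without wild-type replicate 4), Car11 from -0.17 to 0.11, Car12 from -0.043 to 0.27 and Car14 from -0.17 to 0.0022. The cause was not tested. The order of the 10 members in wild type was unchanged with the longest transcript as length and without each wild-type library. The filter at 1 CPM in 4 libraries dropped Car4 and Car10, whose 1 to 65 read pairs per library limit what can be seen.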

Other observations

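Car6, a secreted carbonic anhydrase known from saliva, was present in 3 libraries and nearly absent from the rest. It was at 3.80 CPM in heterozygote replicate 4 from 93 read pairs, and at 0.935 and 3.28 CPM in wild-type replicates 1 and 2 from 22 and 71 read pairs. In the other 5 libraries it had at most 2 read pairs. These 3 libraries lie in both genotypes, and Car6 did not pass the filter on low counts.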
